A study of Mus musculus with 8 samples.

Results

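The genes described here are 43 genes of DNA replication and of the passage from G1 into S phase, taken from a list of symbols. The platform annotation gave 42 of them a probe set of their own on the arrays, 1 for each gene, out of 19505 named genes in all. The remaining member, Mcm7, was matched to no probe set and is not analysed here. RNA came from blood stem cells of mouse bone marrow, sorted without lineage markers and CD48 and with Sca-1, c-Kit and CD150, from mice aged 6 to 10 weeks, and cultured in M5300 medium with stem cell factor at 100 ng/ml and the antibiotic Primocin. For 16 h the culture held eltrombopag at 10 µg/ml (4 arrays, titled EP) or sterile water as vehicle (4 arrays, titled NT). Eltrombopag is an oral drug given to raise platelet counts, and it also binds iron. The labels give no strain, no genotype and no number of mice per array. They call the arrays biological replicates but name no separate animals or cultures. Each p-value therefore reflects spread among these 8 samples only, and how much of that spread is technical is not known.

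Replication is prepared in G1, when the origin recognition complex, with Cdc6 and Cdt1, loads the ring-shaped MCM helicase onto DNA. In S phase Cdc45 and the GINS complex turn the loaded ring into an active helicase, and polymerases, their sliding clamp Pcna and the clamp loader Rfc copy the strands. Cyclin E and the transcription factor E2f1 drive the entry into S phase, and many replication genes are known E2F targets. Blood stem cells are mostly at rest in the marrow and enter the cycle in culture with cytokines.

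Values are log2 expression values, on which a difference of 1 is a factor of 2. The arrays had close medians (6.75 to 6.80) and correlated at 0.9868 to 0.9933 with each other. Transcripts of the sort's own markers were Kit at 12.89 ± 0.049 (SD, n = 4) and Slamf1, which encodes CD150, at 7.01 ± 0.31 (SD, n = 4) with vehicle. Cd48 was at 5.96 ± 0.22 (SD, n = 4), and whether this lies above background is not known here. On the first principal component of all genes (25.5% of the variance) the arrays numbered 1 and 2 (scores -18.8 to -11.0) lay apart from those numbered 3 and 4 (scores 14.0 to 15.6), in both groups. The Y-linked Uty was at 7.71 and 6.98 in the vehicle and eltrombopag arrays numbered 3, and at 3.02 to 3.31 in the other arrays. Male cells were thus present in the arrays numbered 3, and the sex of the cells differed between number 3 and the other numbers. The labels do not say what a number stands for. Since cells were pooled into 1 RNA sample per array, fewer cells of a type and less RNA per cell cannot be told apart in any value below.

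The sequences before the start sites of 4 of the genes show the motif that E2F factors are known to bind. Its forms searched on both strands were TTCCCGC together with TTGGCGC and further TTCGCGC and also TTGCCGC, in RefSeq promoter windows (GRCm38.p6) that run from 250 bases before to 50 bases after a start site. A motif and its reverse can overlap, and each was then counted. Each stretch is the 180 bases before the start site, read 5′ to 3′ on the strand of the gene, with the motif of either strand in capitals. The stretches lie at chr5:151651209-151651388 on the minus strand (Rfc3) and at chr11:98907971-98908150 (Cdc6), chr8:95633379-95633558 (Gins3) and chr8:75109329-75109508 (Mcm5) on the plus strand. The first 3 genes are those with the largest differences between arrays that hold the motif before the start. Gins1, with a larger difference than Cdc6 and Gins3, had no RefSeq promoter window here and was not searched. Mcm5 was added after its sequence was seen because it holds 3 motifs. Mcm6 and Pola1 also hold several motifs before the start.
Rfc3: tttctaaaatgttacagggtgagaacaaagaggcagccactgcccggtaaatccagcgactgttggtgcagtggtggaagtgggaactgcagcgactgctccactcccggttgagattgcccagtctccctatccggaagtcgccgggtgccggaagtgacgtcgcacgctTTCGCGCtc
Cdc6: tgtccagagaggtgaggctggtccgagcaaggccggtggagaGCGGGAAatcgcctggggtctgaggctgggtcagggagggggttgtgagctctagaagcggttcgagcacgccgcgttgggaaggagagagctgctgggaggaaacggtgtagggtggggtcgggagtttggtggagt
Gins3: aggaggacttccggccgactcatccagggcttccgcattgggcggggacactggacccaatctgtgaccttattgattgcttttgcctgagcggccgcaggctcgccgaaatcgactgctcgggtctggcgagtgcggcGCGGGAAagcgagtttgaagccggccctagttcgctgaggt
Mcm5: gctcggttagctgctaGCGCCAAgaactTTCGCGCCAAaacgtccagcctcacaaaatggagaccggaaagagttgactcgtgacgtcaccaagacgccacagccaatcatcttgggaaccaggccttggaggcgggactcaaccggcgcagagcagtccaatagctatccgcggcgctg
In the Mcm5 stretch the second and the third motif overlap on opposite strands. Of the 43 genes, 35 had a promoter in the RefSeq table, some with several, which gave 41 windows. The motif stood in 24 of these 41 windows (58.5%), against 9.57% of all 32851 windows. Of the 62 further genes of replication and the G1/S passage described below, 50 had a promoter there. These 50 gave 62 windows, and the motif stood in 28 of them (45.2%). For the mitosis genes named further below, 20 had a promoter, and the motif stood in 3 of 21 windows (14.3%). Lig1 has 3 matches over windows with different start sites, each after its start site, and the same site may be counted in several windows. Fen1, Rrm1, Uhrf1, Pola1 and Mcm6 are among the others with a match. The match is a description of these letters and no measure of binding.

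With eltrombopag, 0 of the 42 replication and G1/S genes were called. This count is limma's at an adjusted p under 0.05, where the share called over all genes was also 0 (percent called 0 of 19505 genes). At an unadjusted p under 0.05 in limma there were 3 of 42 (1 higher and 2 lower with eltrombopag), beside 3.33% of all genes. The estimate was above 0 for 23 of the 42 genes and below 0 for 19, beside 10200 above and 9305 below of all 19505 genes. The median estimate was 0.013 on the log2 scale, beside 0.0071 over all genes. The 4 eltrombopag values lay wholly above the vehicle values for Tyms and wholly below for Ccne2, and the share of such genes in all was 2.12%. The 95% interval of the difference lay inside a 2-fold change in either direction for all 42 genes and inside a 1.5-fold change for 36, which is 85.7% beside 88.0% of all genes. The intervals carry no adjustment for the number of genes. The 6 whose interval reached past 1.5-fold were Cdc6, Gins1, Gins2, Gins3, Rfc3 and Prim1.

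**Figure D1:**
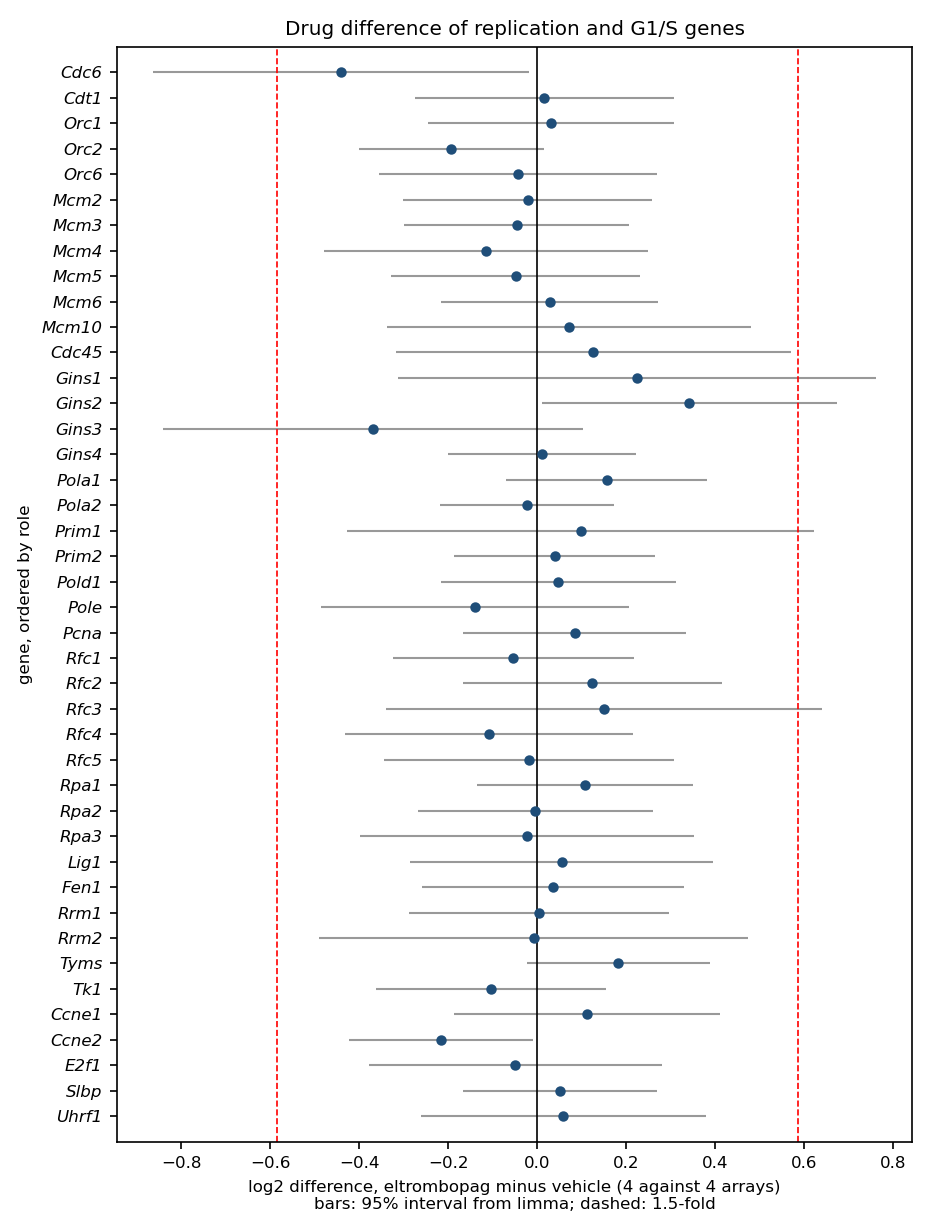
Log2 difference (eltrombopag minus vehicle, 4 against 4 arrays) of each of the 42 genes on the horizontal axis, with genes ordered by role on the vertical axis. Points are limma estimates, bars are 95% intervals and dashed lines mark 1.5-fold; the largest differences are Cdc6 (-0.44), Gins3 (-0.37) and Gins2 (0.34), and none passed the test.

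The 8 genes with the smallest unadjusted p are given with every array; limma's adjusted p was 0.9998 for all 8. Cdc6, the loader that brings the MCM ring to origins, had vehicle values of 7.60, 7.76, 8.14 and 8.29 in arrays 1 to 4. In the eltrombopag arrays it was at 7.255, 7.22, 7.89 and 7.66. The eltrombopag array was the lower one at each of the 4 numbers, yet the groups overlapped, since arrays 3 and 4 were the higher ones in both. The log2 difference of Cdc6 was -0.44 (SE 0.19), with an unadjusted p of 0.0425 in limma. Taking the number as a block gave an unadjusted p of 0.00321 and an adjusted p of 0.984, so the call was the same.

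Orc2, a subunit of the origin recognition complex, was at 9.14, 8.99, 9.01 and 9.08 with vehicle and at 8.83, 9.01, 8.85 and 8.75 with eltrombopag. Only eltrombopag array 2 reached the vehicle range, and the difference was -0.19 (SE 0.094). The differences of the other loading genes, Orc1, Orc6 and Cdt1, lay between -0.044 and 0.031.

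Cyclins E1 and E2 activate Cdk2 at the start of S phase, and their differences had opposite signs. Ccne2 was at 8.87, 8.73, 8.72 and 8.85 with vehicle and at 8.57, 8.46, 8.57 and 8.70 with eltrombopag. Every eltrombopag value was below every vehicle value, by a narrow margin, and the difference was -0.22 (SE 0.094, unadjusted p 0.0425 in limma). Ccne1 was at 8.46, 8.54, 8.90 and 8.92 with vehicle and at 8.62, 8.78, 9.01 and 8.84 with eltrombopag, a difference of 0.11 (SE 0.13). E2f1 differed by -0.050 (SE 0.15). The groups of Ccne1 and of E2f1 overlapped.

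The GINS subunits, which join Cdc45 and MCM in the working helicase, had differences of both signs. Gins2 was at 8.19, 7.74, 7.98 and 8.39 with vehicle and at 8.21, 8.36, 8.63 and 8.47 with eltrombopag. It was higher with eltrombopag at all 4 numbers, by 0.34 (SE 0.15, unadjusted p 0.0448 in limma), though vehicle array 4 lay within the eltrombopag range. Gins3 was at 7.40, 7.72, 8.32 and 8.31 with vehicle and at 7.69, 7.33, 7.86 and 7.39 with eltrombopag. Vehicle arrays 3 and 4 stood above all others, and the difference of -0.37 (SE 0.21) was -0.69 in arrays 3 and 4 and -0.048 in arrays 1 and 2. Gins1 differed by 0.22 (SE 0.24) and Gins4 by 0.010 (SE 0.095).

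Among the enzymes, Tyms, thymidylate synthase, was at 9.25, 9.24, 9.10 and 9.39 with vehicle and at 9.39, 9.46, 9.45 and 9.40 with eltrombopag. The groups did not overlap, and the difference was 0.18 (SE 0.093). Pola1, the catalytic subunit of the polymerase that starts each strand with primase, was at 9.61, 9.58, 9.89 and 9.82 with vehicle and at 9.89, 9.83, 9.96 and 9.85 with eltrombopag. Vehicle arrays 1 and 2 were the low ones, and the difference was 0.16 (SE 0.10). Rpa1, the large subunit of the protein that coats single strands, was at 9.74, 9.72, 9.74 and 9.39 with vehicle and at 9.74, 9.69, 9.89 and 9.71 with eltrombopag. Its difference of 0.11 (SE 0.11) rested on vehicle array 4: without that array it was 0.021, and in arrays 1 and 2 alone it was -0.019.

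The 5 measured MCM genes had differences from -0.11 (Mcm4) to 0.027 (Mcm6) and a median of -0.047. Genes of the clamp and clamp loader lay between -0.11 (Rfc4) and 0.15 (Rfc3), with Pcna at 0.084. The ribonucleotide reductase genes Rrm1 and Rrm2, which supply deoxynucleotides, differed by 0.0038 and -0.0086. Both lie so near 0 that no direction is given. At matched numbers the median difference over the 42 genes was 0.046, -0.061, 0.11 and -0.081 for numbers 1 to 4, with 25, 15, 28 and 15 genes higher with eltrombopag. Of all 19505 genes 9890, 9991, 10368 and 9691 were higher at numbers 1 to 4. The sign of the median over the 42 genes was thus not the same at every number.

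A second list held 62 further genes of replication and of the G1/S passage, such as geminin, further polymerase subunits and cyclins D, of which 59 were measured. limma called 0 of the 59 between eltrombopag and vehicle, with 36 higher and 23 lower and a median of 0.024. Of all 19505 genes 10200 were higher and 9305 lower, with a median of 0.0071. The 3 with the smallest p were Dck, Chaf1a and E2f2, for which limma's adjusted p was 0.9998. Dck, a kinase that salvages deoxynucleosides, was at 6.81, 7.25, 6.58 and 7.18 with vehicle and at 6.43, 6.29, 6.57 and 6.86 with eltrombopag, a difference of -0.42 (SE 0.17). Chaf1a, a chaperone subunit that places histones behind the fork, differed by 0.22 (SE 0.12). E2f2, a further activating E2F factor, was at 6.36, 5.72, 6.06 and 6.18 with vehicle and at 5.88, 6.19, 7.11 and 7.37 with eltrombopag. Eltrombopag arrays 3 and 4 stood above all other arrays. Over all arrays its difference was 0.56 (SE 0.30, unadjusted p 0.0905 in limma), and it was 1.12 in arrays 3 and 4 and -0.0019 in arrays 1 and 2. In limma the test of that contrast gave an unadjusted p of 0.00614 and an adjusted p of 0.9996. Over all genes this test of whether the drug difference changed with the numbers called 0 genes (percent called 0). At an unadjusted p under 0.05 it gave 0 of the 42 genes and 3.78% of all genes.

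Within the groups the arrays differed by their number. In both groups most replication genes were higher in the arrays numbered 3 and 4 than in those numbered 1 and 2. This division of the arrays was noticed on the first principal component of the same values, so what follows is a description with no test. Leaving out all replication and mitosis genes gave the same division: with the remaining 19383 genes the scores were -18.8 to -10.8 for numbers 1 and 2 and 13.8 to 15.4 for numbers 3 and 4. Of the 42 genes, 31 had higher means in arrays 3 and 4 in both groups, where 28.6% of all genes did so. A further 6 were lower in both (Mcm10, Orc2, Pola2, Tyms, Tk1 and Slbp; 29.2% of all genes), and 5 were on opposite sides. The median log2 difference was 0.24 among vehicle arrays and 0.19 among eltrombopag arrays, beside -0.0042 and 0.0017 for all genes. The vehicle and the eltrombopag values share no array, but Uty was high in both arrays numbered 3. Whether arrays of the same number share a source of cells is not known, so the 2 groups are not taken as separate repeats. Averaged over both groups the median was 0.20, a factor of 1.15. When each of the 8 arrays was left out in turn, the mean difference moved by over 1.5 times or turned at least once for 24 of the 42 genes. It kept its sign throughout for 34 of the 42 genes and turned at least once for Cdt1, Orc1, Rfc1, Rfc4, Rpa1, Pola2, Tyms and Slbp.

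**Figure D2:**
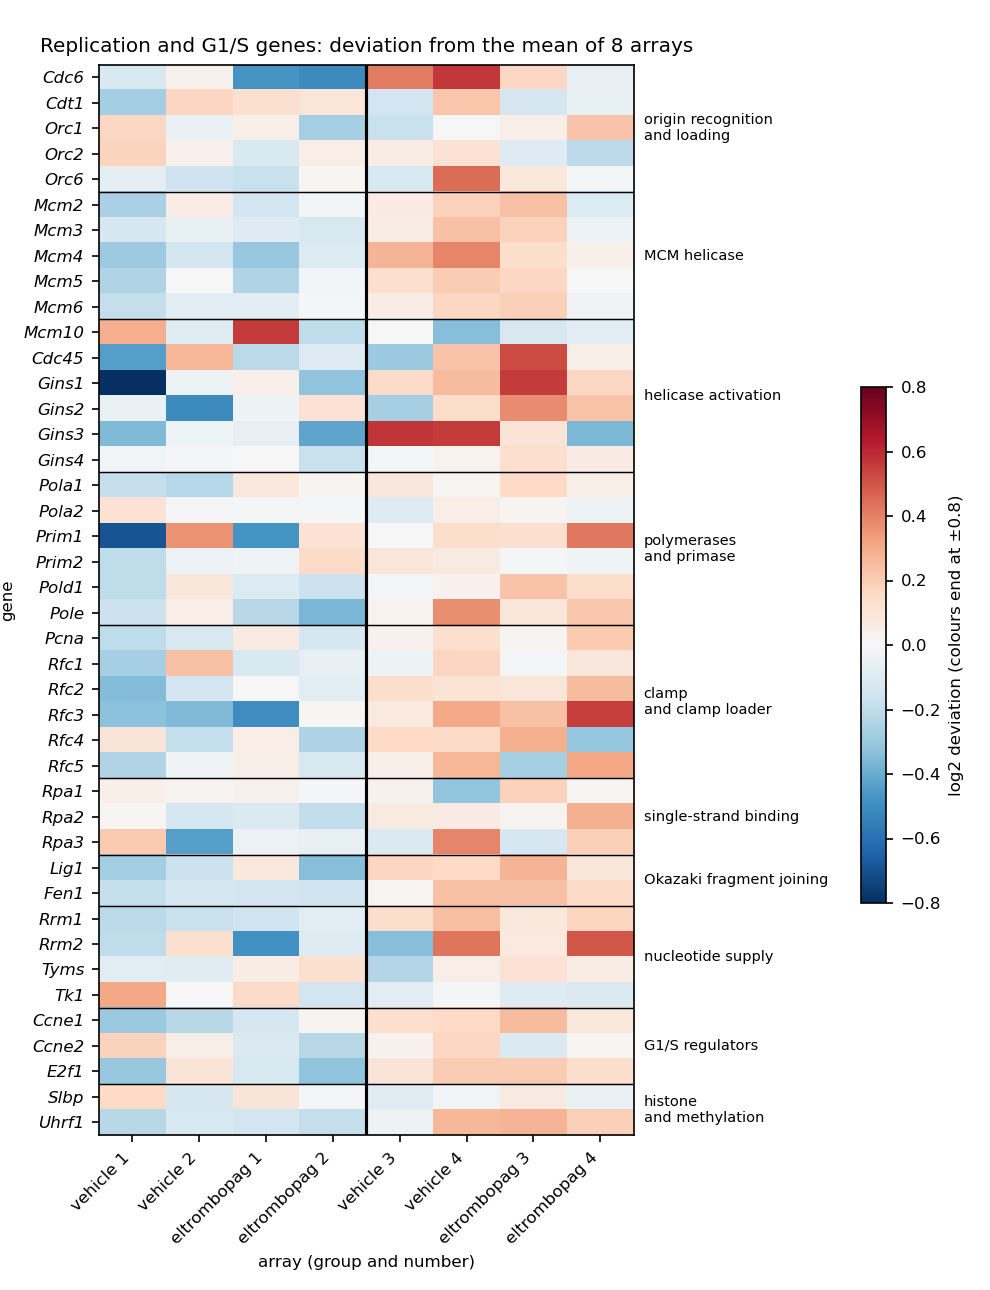
Deviation of each gene (rows, grouped by role) from its mean over the 8 arrays (columns), in log2 units, with arrays numbered 1 and 2 left of the line and those numbered 3 and 4 right of it. Most cells in the MCM and Okazaki fragment rows are below the mean on the left and above it on the right, whereas Mcm10 and Tk1 run the other way.

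In 13 of the 42 genes all 4 arrays numbered 3 or 4 lay above all 4 numbered 1 or 2, where 3.47% of all genes did so, and in 0 genes wholly below (3.77% of all genes). The 13 were Mcm3, Mcm4, Mcm5, Gins1, Rfc2, Rfc3, Rpa2, Lig1, Fen1, Rrm1, Ccne1, E2f1 and Uhrf1. The gap between the sides was 0.18 for Rrm1, 0.15 for Fen1 and 0.15 for Mcm4. It was under a hundredth for Mcm5, Rpa2, Lig1 and E2f1, so that these 4 barely met the condition. Without both arrays numbered 2 the count was 21, where 10.3% of all genes did so. Among genes above the median gene, where 41 of the 42 lie, the share wholly above was 5.35%.

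The 6 MCM proteins form the ring that unwinds DNA. All 5 that were measured were higher in arrays 3 and 4 in both groups, by a median of 0.21. Mcm4 had the widest difference, at 8.97 and 9.11 in vehicle arrays 1 and 2 against 9.53 and 9.65 in vehicle arrays 3 and 4. The eltrombopag arrays had 8.95 and 9.15 against 9.40 and 9.29. The 4 high values of Mcm4 lay clear of the 4 low ones in both groups. For Mcm2, Mcm3, Mcm5 and Mcm6 the mean difference was between 0.19 and 0.25, and the sides of Mcm2 and Mcm6 overlapped, with eltrombopag array 4 as the lowest of arrays 3 and 4. The difference of Mcm2 was 0.11 without vehicle array 1 and 0.10 without eltrombopag array 3.

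Of the loading genes, Cdc6 differed by 0.53 with vehicle and by 0.54 with eltrombopag, which is a factor of 1.45 on average. Its sides overlapped across the groups because eltrombopag array 4 (7.66) lay below vehicle array 2 (7.76). Within each group arrays 3 and 4 were both above arrays 1 and 2. Orc6 had a mean difference of 0.20 that rested on vehicle array 4 (9.63): without it the mean was 0.060 and the vehicle difference 0.0005. Orc1 and Cdt1 stood on opposite sides in the 2 groups, and the mean of Orc2 was -0.069, or -0.026 without eltrombopag array 2.

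Among the genes of helicase activation, Gins1 was at 6.31 and 7.08 in vehicle arrays 1 and 2 and at 7.27 and 7.37 in vehicle arrays 3 and 4. The eltrombopag arrays had 7.16 and 6.79 against 7.68 and 7.285. Its mean difference of 0.57 owed part of its size to vehicle array 1, and it was 0.37 without that array. Gins3 was higher by 0.76 with vehicle but by 0.12 with eltrombopag, where it was -0.12 without array 3. Mcm10, which binds the helicase as it is activated, was lower in arrays 3 and 4 by 0.27 and 0.29 in the 2 groups, with eltrombopag array 1 (8.998) as its highest value. Without that array the eltrombopag difference of Mcm10 turned to 0.097 and the mean became -0.086, and without vehicle array 1 the vehicle difference was -0.075.

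Rfc3, a small subunit of the loader that opens the Pcna clamp, had the largest mean difference, 0.58, a factor of 1.499. It was at 6.445 and 6.42 against 6.85 and 7.07 with vehicle, and at 6.27 and 6.78 against 7.01 and 7.32 with eltrombopag. Its high and low arrays did not overlap. All 6 genes of the clamp and its loader were higher in both groups, with a median of 0.19. Pcna was at 10.72 and 10.80 against 10.95 and 11.06 with vehicle, and at 10.996 and 10.79 against 10.94 and 11.14 with eltrombopag. Only eltrombopag array 1 broke the order of Pcna.

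Lig1, the ligase that seals Okazaki fragments, was at 7.83 and 7.93 against 8.28 and 8.26 with vehicle, and at 8.19 and 7.76 against 8.37 and 8.196 with eltrombopag. Fen1, the nuclease that trims their flaps, was at 8.52 and 8.58 against 8.73 and 8.95 with vehicle, and at 8.56 and 8.55 against 8.94 and 8.86 with eltrombopag. The mean differences of these 2 genes were 0.35 and 0.32. Pole, the catalytic subunit of the leading-strand polymerase, was at 8.84 and 9.07 against 9.04 and 9.39 with vehicle. With eltrombopag it was at 8.79 and 8.65 against 9.11 and 9.23, and its sides overlapped by vehicle array 2 alone. Prim1, the catalytic primase subunit, was at 7.44 and 8.49 against 8.13 and 8.27 with vehicle, and at 7.66 and 8.25 against 8.27 and 8.55 with eltrombopag. Both arrays numbered 1 were the low ones for Prim1, and without them its mean difference of 0.35 became -0.066.

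Of the genes of nucleotide supply, Rrm1 was at 9.05 and 9.09 against 9.41 and 9.51 with vehicle, and at 9.10 and 9.17 against 9.35 and 9.44 with eltrombopag. Rrm1 had the widest gap between the sides. Rrm2 was at 7.22 and 7.55 against 7.08 and 7.85 with vehicle, and at 6.93 and 7.32 against 7.50 and 7.91 with eltrombopag. Vehicle array 3 was among the low arrays for Rrm2, so the vehicle difference was 0.082 and the eltrombopag difference 0.58. The mean of 0.33 became 0.14 without vehicle array 4 and 0.52 without vehicle array 3. The mean difference of Tyms was -0.0044, and Tk1, thymidine kinase, had a mean of -0.16. Without eltrombopag array 1 (7.64) the eltrombopag difference of Tk1 turned to 0.038 and the mean became -0.086, and without vehicle array 1 the mean was -0.084.

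Of the regulators, Ccne1 was higher in arrays 3 and 4 by 0.41 with vehicle and 0.225 with eltrombopag, and E2f1 by 0.25 and 0.39. Uhrf1, which guides DNA methylation to new strands, was at 9.68 and 9.78 against 9.86 and 10.17 with vehicle, and at 9.75 and 9.71 against 10.17 and 10.09 with eltrombopag. Its 4 high arrays did not overlap with its 4 low ones. Slbp, which binds the stem-loop of histone mRNAs, had a mean difference of -0.054. Cdc45, the helicase partner of GINS, was at 7.01 and 7.71 against 7.15 and 7.68 with vehicle, and at 7.235 and 7.35 against 7.97 and 7.50 with eltrombopag. Its arrays had no clear order with vehicle, where the difference was 0.052. The difference of 0.45 with eltrombopag rested on array 3 and was 0.21 without it. Pold1, the catalytic subunit of the lagging-strand polymerase, had a difference of 0.066 with vehicle, which turned to -0.080 without vehicle array 1, and of 0.33 with eltrombopag. Rpa2 was higher by 0.13 and 0.31. The mean of its partner Rpa3 was 0.17, and 0.0047 without vehicle array 2. The loader subunits Rfc1, Rfc4 and Rfc5 had mean differences of 0.11, 0.14 and 0.18, and the high and low arrays overlapped for each. Without 1 array the means went as low as -0.017 (Rfc1, without vehicle array 1), -0.0066 (Rfc4, without eltrombopag array 3) and 0.032 (Rfc5, without eltrombopag array 4). Prim2, the regulatory primase subunit, had a difference of 0.21 with vehicle and of -0.079 with eltrombopag, and the latter was 0.017 without eltrombopag array 2 (7.60).

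**Figure D3:**
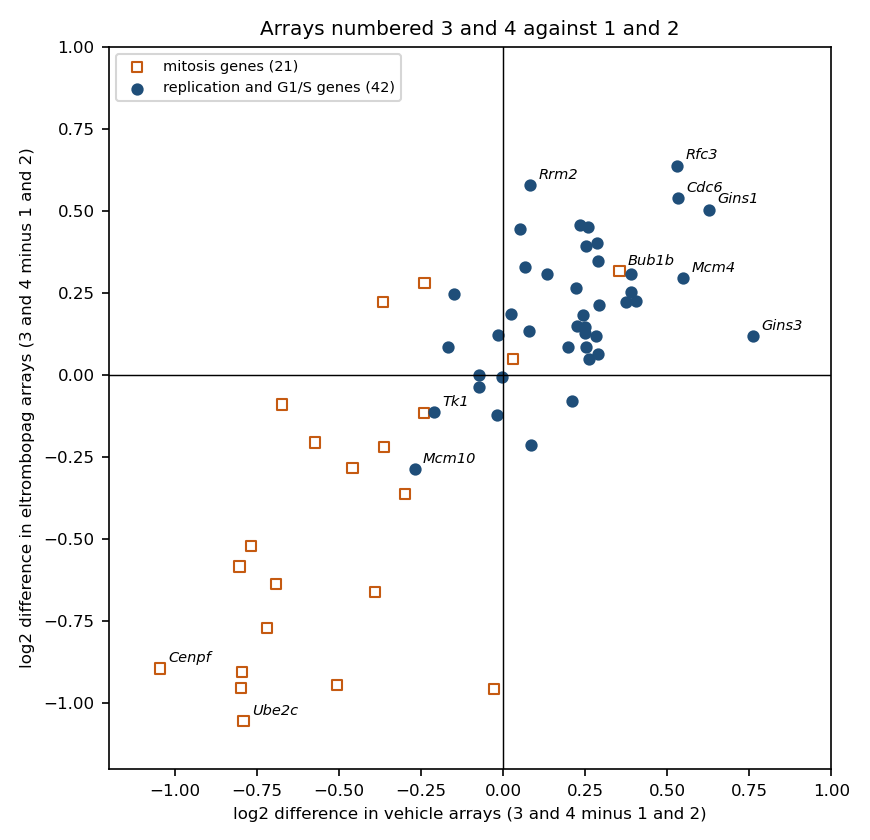
Log2 difference of arrays numbered 3 and 4 minus those numbered 1 and 2, among vehicle arrays (horizontal) and eltrombopag arrays (vertical), for 42 replication and G1/S genes (filled circles) and 21 mitosis genes (open squares). The circles lie mostly in the upper right and most squares in the lower left, while the mitosis gene Bub1b lies with the circles.

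Mitosis genes stood on the other side. A list of 22 genes of chromosome condensation, the spindle and its checkpoint had 21 measured members, and 17 were lower in arrays 3 and 4 in both groups (29.2% of all genes). In 12 of the 21 all 4 arrays numbered 3 or 4 lay below all 4 others (3.77% of all genes). Their median difference was -0.51 with vehicle and -0.52 with eltrombopag. Cenpf, a kinetochore protein, was at 7.39 and 7.41 against 6.35 and 6.36 with vehicle, and at 7.22 and 6.76 against 6.39 and 5.802 with eltrombopag. The 4 not lower in both groups were Top2a, Cdk1, Aurkb and Bub1b. Of the 59 further replication genes, 31 were higher in both groups (28.6% of all genes), 13 lower in both (29.2% of all genes) and 15 on opposite sides. Their median difference was 0.083, and their list means overlapped between the numbers (8.68 to 8.755 against 8.71 to 8.83). Among them 8 were wholly above (3.47% of all genes), such as geminin (Gmnn, 0.57) and Cdk2 (0.25). In this list 3 were wholly below (3.77% of all genes): Orc4 (-0.36), Tfdp1 (-0.12) and Ccna2, the cyclin of S phase and G2 (-0.38).

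**Figure D4:**
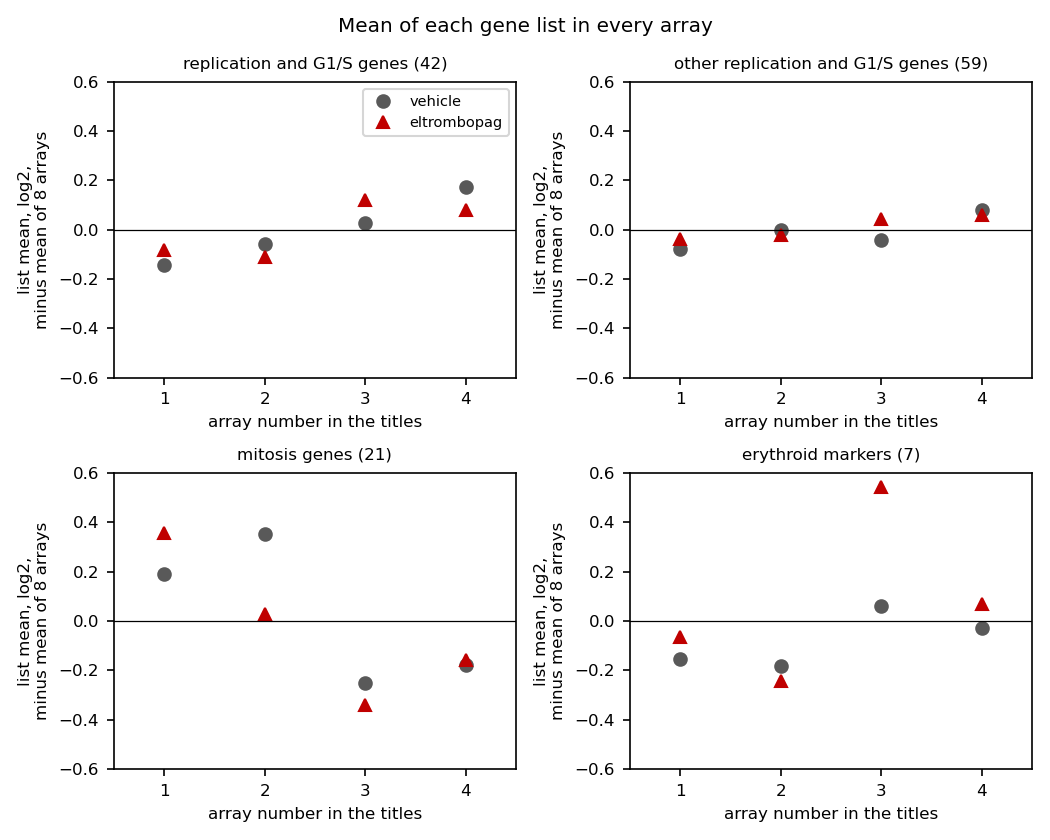
Mean log2 value of 4 gene lists in each array, minus the mean over the 8 arrays, by the array number in the titles; circles are vehicle and triangles eltrombopag, with 1 array each. Replication and G1/S genes are above 0 in all 4 arrays numbered 3 or 4 and mitosis genes below 0, and erythroid markers are highest in eltrombopag array 3.

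Markers of other blood cell types were also described by array number. The mean over 7 measured erythroid markers of 10 was 6.65 to 6.83 in arrays 1 and 2 and 6.86 to 7.44 in arrays 3 and 4. Of the 7, 5 were higher in both groups (28.6% of all genes) and 1 was wholly above (3.47% of all genes). Alas2, the first enzyme of erythroid heme synthesis, was higher by 0.93 with vehicle and by 1.52 with eltrombopag, while Gata1 differed by -0.11 and 0.040 and Epor, the erythropoietin receptor, by 0.031 and -0.091. Without Alas2 the means of the other 6 overlapped, at 6.49 to 6.68 in arrays 1 and 2 and 6.53 to 7.12 in arrays 3 and 4. The highest of these was eltrombopag array 3, where Car1 was at 6.76 against 4.47 to 4.999 in the other arrays. No erythroid marker of this list other than Car1 (mean 4.98) lay below the arrays' lower quartile of 5.05. Of 8 neutrophil and monocyte markers 6 were higher in both groups (28.6% of all genes) and 1, Elane, was lower in both (29.2% of all genes). The mean difference was 1.38 for S100a8, whose mean value of 5.19 lay near the lower quartile, and -0.42 for Elane. Ctsg stood on opposite sides in the 2 groups. Ctsg (mean 4.73) and Ly6c2 (mean 4.35) lay below the lower quartile. Of 4 megakaryocyte markers 4 were higher in both groups (28.6% of all genes). The list means of the neutrophil and monocyte markers and of the megakaryocyte markers overlapped between the numbers. They were at 6.13 to 6.55 against 6.38 to 6.68 and at 8.17 to 8.37 against 8.22 to 8.61. Of 5 B cell markers 1 was higher in both groups, of 5 T and NK cell markers 2 and of 7 blood stem cell markers 4. The share of all genes was again 28.6%, and these list means overlapped as well. In the blood stem cell list Hlf was higher by 0.47 with vehicle and by 0.45 with eltrombopag. It was the 1 gene of that list wholly above (3.47% of all genes), with a gap of 0.28 between the sides. Cd48 was lower in both groups (29.2% of all genes), with a mean difference of -0.35, and 2 of the 7 stood on opposite sides. The array medians were 6.75 to 6.80 in arrays 1 and 2 and 6.78 to 6.79 in arrays 3 and 4. The part of the erythroid, myeloid, megakaryocyte and blood stem cell markers in the difference between the numbers was not tested. Without both arrays numbered 3, in which Uty was high, the median difference of the 42 replication genes between the numbers was 0.27, and without both arrays numbered 4 it was 0.20.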

How the data were processed

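Expression was measured on 8 Affymetrix mouse arrays, 4 per group, from about 10 ng of RNA amplified from the 3′ end, per the labels' protocols. The authors deposited log2 values, 1 per probe set and array; RMA, with the tools oligo and limma, is named per the submitters' processing notes, with no version. RMA sets the arrays to a common distribution, so a difference in total RNA is removed before deposit. Scanner files and signal over background were not used here, and precision is limited by having 8 arrays. For the probe sets, no genome build is named in the sources used here.

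Of 22206 probe sets, 19572 had 1 gene symbol in the platform annotation, 0 had several and 2634 had none. For 55 genes with several probe sets the one with the highest mean was used; no member had several. All 42 measured members lay above the lower quartile, and 41 above the median gene. Groups and numbers came from the titles.

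The drug comparison was limma 3.58.1 in R 4.3.3 on all 19505 genes, group only, two-sided, with Benjamini-Hochberg adjustment and calls at adjusted p under 0.05; an interaction term tested whether it differed between numbers 1 and 2 and numbers 3 and 4. Values in every array were given for the 8 members with the smallest p, and for the 10 with the largest difference between numbers among those with the same sign in both groups, besides family members shown with them. Pcna, Fen1, Rrm1, Ccne1 and Cenpf were shown after their values were seen. Members and lists were chosen with earlier results of these data known. The scripts were tested on simulated data.

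Deviations from the group mean correlated across genes at 0.232, 0.286, 0.181 and 0.133 for arrays of the same number, and at -0.203 to 0.167 for arrays of different numbers. All 4 exceeded 0.1, but the arrays 3 and 4 of unlike number (0.167 and 0.166) exceeded the pair numbered 4. The Y-linked genes Uty and Kdm5d gave a further sign of a pairing, for number 3 only. Kdm5d was at 7.08 and 6.36 in the vehicle and eltrombopag arrays numbered 3, and at 3.37 to 3.81 in the other arrays. Whether arrays of the same number share a source of cells was not tested. The drug comparison as reported has no block, so its SEs and intervals are those of an unpaired fit. With the number as a block, limma's SE was lower for 39 of the 42 members. For Cdc6 it was 0.10 with the block and 0.19 without it. Alternatives were a replicate block (fixed or random), a term for the number pairs, each number pair alone, a filter on dim genes, quantile normalization, equal medians, array weights, a trended robust variance, mean probe sets, and leaving out arrays.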

Additional observations from a re-analysis of the deposited data

Results flagged for a closer look

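In 84 groups of 4 arrays (42 genes in 2 groups), 6 held an array far from the other 3, where chance gives about 4.2 (about 1 group in 20). With eltrombopag, Mcm10 was at 8.998 in array 1, against 8.23 to 8.35 in the others (gap over range 0.845), and Tk1 was at 7.64 in the same array, against 7.34 to 7.39 (0.857). Prim2, the primase regulatory subunit, was at 7.60 in eltrombopag array 2, against 7.41 to 7.43 (0.874). With vehicle, Orc6 was at 9.63 in array 4, against 9.02 to 9.12 (0.840), and Rpa1 was at 9.39 in the same array, against 9.72 to 9.74 (0.945). Rfc4, a clamp loader subunit, was at 8.29 in vehicle array 2, against 8.58 to 8.64 (0.844).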

How the results depend on the processing

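Genes called between eltrombopag and vehicle, and members called, stayed at 0 under all 20 alternatives, with 304 to 945 genes and 1 to 4 members at an unadjusted p under 0.05 in limma. The median difference of the members ran from -0.025 to 0.067. With the replicate block the counts of calls were 0 for genes and 0 for members (904 and 3 at an unadjusted p under 0.05), and it changed no call. The interaction called 0 genes under 17 alternatives (360 to 1311 at an unadjusted p under 0.05 in limma). In arrays numbered 1 and 2 only, Rpa1 (-0.019) and E2f2 (-0.0019) turned sign; Prim1 did so between the numbers (-0.066) without both arrays numbered 1. The cause was not tested. The members wholly above in arrays 3 and 4 were 21 without both arrays numbered 2 (10.3% of all genes). Leaving out fewer arrays, 1 at a time, gave 13 to 18 (4.92% to 5.39% of all genes). With fewer arrays the condition is easier to meet. With equal medians the count was 10 (3.16% of all genes). Among genes above the median gene it was 12 of 41, beside 5.35% of the genes above that median. Leaving out both arrays of 1 number, leaving out 1 array for every member's difference between the numbers, and marker lists without their widest gene were alternatives chosen after seeing the data.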
